A study of Mus musculus with 12 samples.

Results

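The genes described here are 9 regulators and markers of the neural crest: the transcription factors Tfap2a, Tfap2b, Tfap2c, Foxd3, Sox10, Snai2, Tbx2 and Tbx3, and the neurotrophin receptor gene Ngfr. They were chosen by name, and a read counted for one of them when the authors' quality tag was PASS and the transcript class was mRNA. Of these 9 genes 7 had at least 1 read and 3 (Foxd3, Ngfr and Tbx2) had at least 30, among 14042 genes with reads and 9309 with at least 30. Together they held 178 of 4274320 reads, so the measurements below rest on few molecules.

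The cells were P19, a mouse embryonal carcinoma line labelled WT, which becomes neuron-like when treated with retinoic acid. D0 cells were undifferentiated and had no retinoic acid, and D2, D4 and D6 cells had spent 2, 4 or 6 days in NDiff 227 medium with 500 nM retinoic acid. D0 cells grew in medium with serum, so the change of medium and the retinoic acid cannot be told apart. Each day had 3 biological replicates of this 1 line. RNA was read directly on nanopores from its 3′ end, so that 1 read is 1 molecule with its poly(A) tail, whatever the length of the transcript. Libraries held between 120326 and 613756 reads, and D2 was the shallowest day with 545795. Each of the 13 sequencing runs held a single day, so run and day cannot be told apart. The runs of D0 carry both "undifferentiated" and "D2" in their names. Runs 3 and 4 of D6 name no day. Pou5f1, which marks embryonal carcinoma cells, had 2473 reads at D0 and 4, 0 and 1 on the later days, and the neuronal tubulin gene Tubb3 had 202, 38, 518 and 1001 in the same order.

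The neural crest arises at the border between neural plate and surface ectoderm and gives rise to peripheral neurons, glia and pigment cells. In the embryo AP-2 factors (the products of the Tfap2 genes) act at this border, Foxd3, Snai2 and Sox10 mark the crest that forms from it, and the p75 receptor encoded by Ngfr is found on crest cells and on many neurons. Several of these genes also have other uses. Foxd3, Tbx3 and Tfap2c are active in pluripotent cells, and Tfap2c also in trophoblast and germ cells.

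Ngfr and Tbx2 had no read at D0 or D2 and were read in all libraries at D6. Foxd3 was read in all D0 libraries, had 1 read at D2 and was back near its D0 level at D6. The AP-2 genes, Sox10, Snai2 and Tbx3 stayed between 0 and 6 reads per day. Among 9309 genes tested by limma-voom at an adjusted p of at most 0.05, D6 brought 19% up and 18.8% down relative to D0 (22.8% down at an unadjusted p of at most 0.05). Of the 3 crest genes tested 2 were higher and 0 lower at both thresholds. Ngfr and Tbx2 had no D0 read and passed the filter of 30 reads only through the later days, so they could not be lower and nothing is read from that count. Scaling by library totals without TMM factors moved the median log2 change of all genes by up to 0.26. It changed the split of all genes to 720 higher and 373 lower at D2 (from 437 and 569), 1537 and 921 at D4 (from 1199 and 1165), and 2588 and 1162 at D6 (from 1765 and 1751). From D4 to D6 it became 573 and 257 (from 376 and 409), and between D4 and D2 170 and 138 (from 189 and 101). A change in these levels may reflect more or fewer cells of a type or more or less RNA per cell, which cannot be told apart in bulk RNA.

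**Figure D1:**
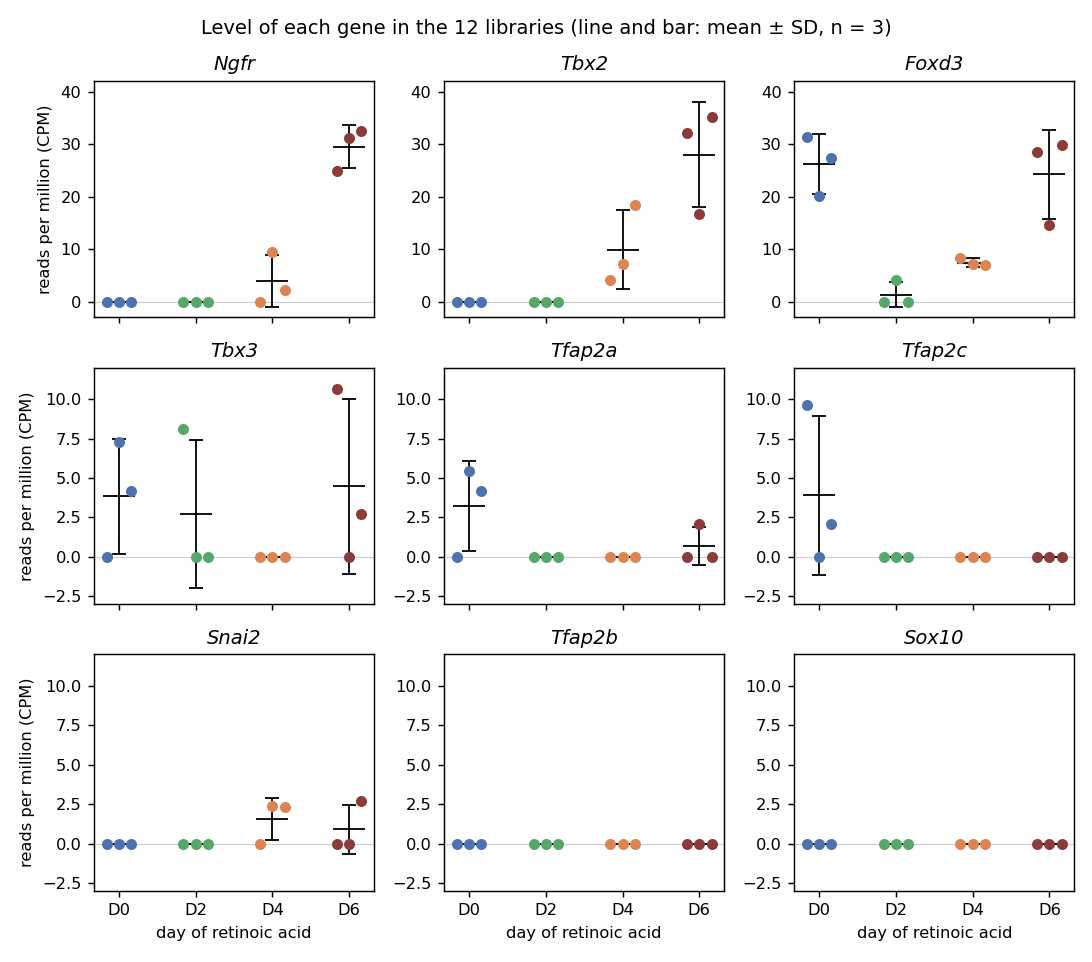
CPM (reads per 1000000 of the scaled library) of the 9 genes on the y axes against the day of retinoic acid on the x axes; each dot is a library, and the line and bar give the mean ± SD of 3 libraries. The upper row has a wider y axis than the others. Ngfr and Tbx2 lie at 0 at D0 and D2 and above 14 CPM at D6, Foxd3 is lowest at D2, and no other gene exceeds 11 CPM in a library.

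Ngfr encodes p75, a receptor for neurotrophins and their precursors. Its single annotated transcript (ENSMUST00000000122) lies on the minus strand of mm10 chromosome 11, from 95568818 to 95587735, and has 6 exons. Ngfr had 0 reads in each library of D0 and D2. At D4 it had 0, 4 and 1 reads in replicates 1, 2 and 3, and at D6 it had 7, 15 and 12. The D6 libraries were at 24.9, 31.1 and 32.5 CPM, and none overlapped with another day. How many of all genes had levels without overlap was not counted, here or for the genes below. The mean was 29.5 ± 4.05 CPM at D6 (SD, n = 3) against 3.92 ± 4.93 CPM at D4. A count of 0 at D0 allows up to 2.08 CPM (3 reads over the scaled depth of the day). Against that limit the pooled D6 reads of Ngfr were at least 14.4-fold higher (limma-voom adjusted p 1.09e-08). Ngfr passed the filter through the later days and could not be lower, so this p-value does not test a direction. From D4 to D6 it rose by 2.79 ± 0.61 on the log2 scale (SE, limma-voom adjusted p 0.000953), and by 2.39 to 3.57 with 1 library left out, the highest without D4 replicate 2. In that comparison 4.04% of all genes were higher and 4.39% lower, and Ngfr was the only crest gene called. Ngfr passed the filter of 30 reads through its D6 reads, which favours a rise. With every library thinned to 120326 reads the call was lost (limma-voom adjusted p 0.292).

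The D4 level of Ngfr was less certain. It had 5 reads against 0 at D0, with a limma-voom adjusted p of 0.0524, and the libraries of both days overlapped at 0. Replicate 2 supplied 4 of the 5 reads. Reads with other quality tags numbered 1, 0 and 3, and with every tag counted the log2 change was 3.09 with a limma-voom adjusted p of 0.000683. Without D4 replicate 1, which had none, the adjusted p was 0.0198, and without D6 replicate 1 it was 0.0486 by limma-voom. It was also called with library totals (limma-voom adjusted p 0.0388), without a filter (0.0204), with the replicate block (0.0388) and with limma-trend (adjusted p 0.0400). The remaining alternatives that tested it did not call it. Without D4 replicate 2 the fitted log2 change was 1.35 with a limma-voom adjusted p of 0.335. The runs of D6 gave Ngfr 16, 1, 15 and 2 reads, so no single run carried its D6 level.

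Tbx2 encodes a T-box factor that represses transcription and acts in crest-derived tissue, the heart and the limb. It lies on the plus strand of chromosome 11, from 85832551 to 85841948, with 7 exons (ENSMUST00000000095). Like Ngfr it had 0 reads in each library of D0 and D2, but 1 read with another tag in D2 replicate 3. At D4 it had 1, 3 and 8 reads and at D6 9, 8 and 13. Its mean was 9.90 ± 7.53 CPM at D4 and 28.0 ± 9.97 CPM at D6 (SD, n = 3). All D4 and D6 libraries lay above those of D0 and D2, but D4 replicate 3 at 18.4 CPM was above D6 replicate 2 at 16.6 CPM.

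Against the same limit at D0 the pooled Tbx2 reads were at least 5.25-fold higher at D4 (limma-voom adjusted p 0.000457). At D6 they were at least 12.7-fold higher (8.76e-08 by the same fit). Tbx2 too could not be lower than a day with no read, so these p-values do not test a direction. At D4 8 of the 12 reads came from replicate 3, and without it the fitted log2 change was 2.81 (adjusted p 0.0114) in place of 3.36. Tbx2 was the 1 crest gene called higher at D4, when 12.9% of all genes were higher and 12.5% lower. Neither Tbx2 nor Ngfr could be lower there, so nothing is read from that count. Thinning to the smallest library ended the D4 call of Tbx2 (limma-voom adjusted p 0.126). Its change from D4 to D6 was 1.29 ± 0.50 on the log2 scale (SE, limma-voom adjusted p 0.0976). Without D6 replicate 2 that change was 1.75 with an adjusted p of 0.0263. At D6 the libraries of Ngfr, Tbx2 and Foxd3, in falling order of their means, overlapped.

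Tbx3, the closest relative of Tbx2, had reads already at D0. It lies on chromosome 5, from 119670669 to 119684724. The D0 libraries gave it 0, 4 and 2 reads, the D2 libraries 1, 0 and 0, those of D4 none and those of D6 3, 0 and 1. Its ratio of D6 to D0 was 0.849 with a 95% counting interval from 0.176 to 3.58, so that a change in either direction is within the counting error. All 11 Tbx3 reads had mapping quality 0 and lay on several annotated transcripts of the gene.

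Foxd3 encodes a forkhead factor that keeps both pluripotent cells and early crest cells from differentiating. It is a single-exon gene on the plus strand of chromosome 4, from 99656299 to 99658622 (ENSMUST00000087285). The D0 libraries held 13, 11 and 13 Foxd3 reads, the D2 libraries 0, 1 and 0, the D4 libraries 2, 3 and 3, and the D6 libraries 8, 7 and 11. From day 0 to day 6 the means were 26.2 ± 5.68, 1.36 ± 2.35, 7.45 ± 0.775 and 24.3 ± 8.47 CPM (SD, n = 3). All D2 and D4 libraries lay below all D0 and D6 libraries, while the D0 and D6 libraries overlapped. The share of all genes with libraries apart in this way was not counted.

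At the D0 level 14.4 Foxd3 reads would have been read at the depth of D2, and 1 was. The D2 to D0 ratio was 0.0694, with a 95% counting interval from 0.00171 to 0.411. Foxd3 was called lower at D2 (limma-voom adjusted p 0.00297), when 6.11% of all genes were lower and 4.69% higher. The call was lost without D2 replicate 3 (log2 change -2.36, adjusted p 0.0586, against -2.71). With limma-trend the log2 change was -1.23 (adjusted p 0.0217). At D2 11% of all genes were higher at an unadjusted p of at most 0.05, and 0 crest genes were, but Ngfr and Tbx2 had no read on either day and gave no comparison. The fit still gave both a log2 change of 1.41 there, from the 0.5 reads added at unequal depth, and fitted changes against a day with no read carry such an offset.

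Foxd3 fell by 1.60 on the log2 scale from D0 to D4 (SE 0.50, limma-voom adjusted p 0.0122), the 1 crest gene called lower at D4. That call was lost at a similar or larger log2 change without D4 replicate 2 (-1.57, adjusted p 0.0560) or replicate 3 (-1.54, 0.0579) and with thinned libraries (-1.97, 0.0766), and at a smaller one with the most read transcript of each gene alone (-0.87, 0.270). From D4 to D6 it changed by 1.41 ± 0.52 (SE) with a limma-voom adjusted p of 0.0792, and without D6 replicate 2 by 1.86 with an adjusted p of 0.0242. It was also called with library totals (1.56, adjusted p 0.0462), with every tag (1.83, 0.0121) and without the further annotated copy of the gene (2.60, 0.0117). The last of these settings leaves 1 read at D4. Comparing D6 with D0, the log2 change was -0.19 with a 95% interval from -0.91 to 0.53 (limma-voom adjusted p 0.718), so a difference of the size seen at D2 or D4 lies outside this interval. With library totals the change was 0.086, also not called. The D6 level was 12.9 times that of D2, with a 95% counting interval from 2.12 to 528.

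Between D4 and D2 2.03% of all genes were higher and 1.08% lower by limma-voom, and 0 of the 3 crest genes tested were called in either direction. At an unadjusted p of at most 0.05, 1 was higher (Tbx2) and 0 lower, against 9.21% and 6.65% of all genes. Ngfr and Tbx2 had no D2 read and could not be lower there. From D4 to D6 0 crest genes were lower at either threshold. All 3 were higher at an unadjusted p of at most 0.05, where 10.7% of all genes were higher and 11.3% lower. Ngfr and Tbx2 reached the filter of 30 reads through D6, with 34 and 30 reads there against 5 and 12 at D4. The filter thus favoured their rise, and nothing is read from that count. D2 held the fewest reads, and Foxd3 at 8 against 1 read had a D4 to D2 ratio of 4.09 with a 95% counting interval from 0.549 to 182.

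Of the 11 AP-2 reads 10 came from D0, which also held 1582131 of the 4274320 reads. Tfap2a, whose product AP-2α is required for crest and face development, lies on chromosome 13 (40715302 to 40738376) and had 0, 3 and 2 reads in the D0 libraries and 1 read later, in D6 replicate 2. Tfap2c, whose product AP-2γ acts in trophoblast and germ cells, lies on chromosome 2 (172549593 to 172558622) and had 4, 0 and 1 reads at D0 and 0 on all later days. Tfap2b, on chromosome 1 (19208914 to 19238576), had no read with the tag PASS, and 1 with another tag at D0. Tfap2a and Tfap2c gave different shares in the D0 libraries, and together Tfap2c made up 5 of 10 reads (50%, 95% exact binomial interval 18.7% to 81.3%, counting error only). With 1 AP-2 read on all later days, a change in this share could not be tested.

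A loss of Tfap2a or Tfap2c was not detectable at D2, where their D0 level would have given 1.95 reads each. At D4 it would have given 3.81 reads and at D6 3.93. For Tfap2c 4 of the 5 D0 reads came from replicate 1, the libraries of D0 and D6 overlapped at 0, and no fold is given. For Tfap2a the ratio of D6 to D0 was 0.255 with a counting interval from 0.00538 to 2.27. None of the AP-2 genes reached the 30 reads needed for the test between days.

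Sox10, a factor that crest cells keep in glia and pigment cells, lies on chromosome 15 (79154908 to 79165240) and had 0 reads with any tag. A count of 0 allows up to 2.08, 5.35, 2.74 and 2.65 CPM on the 4 days in order. Snai2, which encodes a repressor that acts when crest cells leave the neural tube, lies on chromosome 16 (14705852 to 14709385) and had 0, 1 and 1 reads at D4 and 0, 0 and 1 at D6, and none earlier. Both days are at or under the limit of 3 reads, and no fold is given.

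Mapping differed between the genes. All 39 Ngfr and all 42 Tbx2 reads had a mapping quality of at least 10. All 72 Foxd3 reads had mapping quality 0, and 39 of them lay on a further copy of its transcript (ENSMUST00000230639), annotated on a patch contig with the same coordinates. Both copies are the same locus and were added together. Without the patch copy Foxd3 kept 18, 1, 1 and 13 reads over the 4 days. Its D2 call was then lost (log2 change -1.67, limma-voom adjusted p 0.115). Its fall at D4 was larger (-2.69, adjusted p 0.00212), but rests on the 1 D4 read left. The patch copy, which held 19, 0, 7 and 13 reads, is the most read transcript of Foxd3 used above.

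Most reads reached back from the 3′ end without covering the whole transcript. Foxd3 reads aligned over a median of 821 nt and 63 of 72 reached into the coding sequence, but 1 passed its start. Ngfr has a 3′ untranslated region of 1985 nt, and 5 of 39 reads reached the coding sequence and 0 its start. For Tbx2, 36 of 42 reads reached the coding sequence and 1 its start. These reads identify each gene by its 3′ part, and 5′ isoforms could not be compared.

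**Figure D2:**
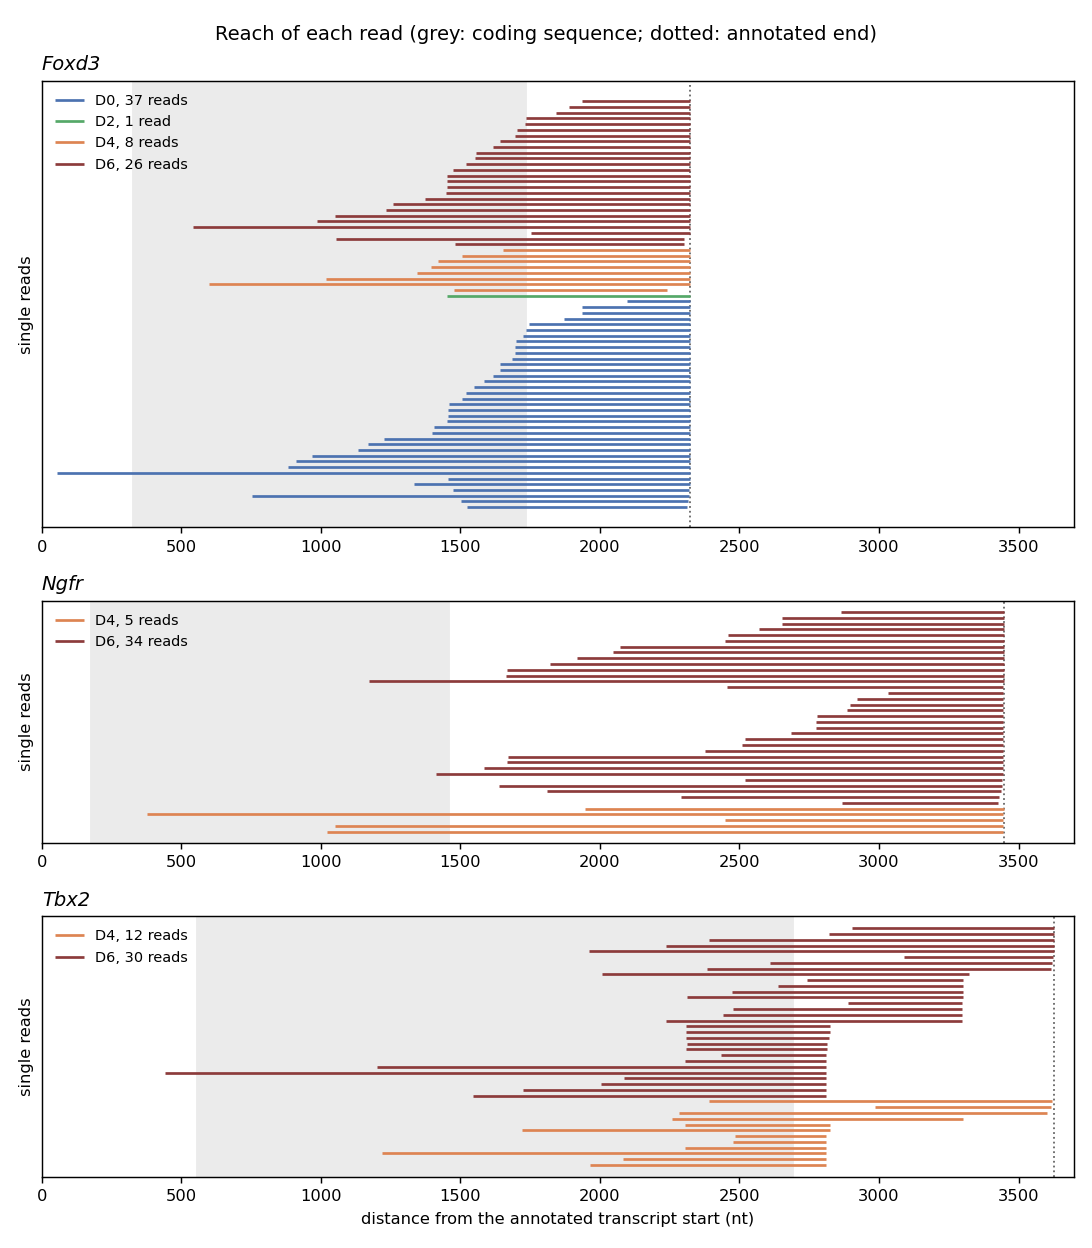
Each line is a read of Foxd3, Ngfr or Tbx2, drawn from its first to its last aligned base in nt from the annotated transcript start (x axis) and coloured by day; reads are stacked along the y axis by day, grey marks the coding sequence and the dotted line the annotated end. Foxd3 and Ngfr reads stop at 1 place each, while Tbx2 reads stop at 3.

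The reads of Ngfr, Foxd3 and Tbx2 showed where each mRNA ended. The last 30 transcribed bases before the most frequent read end are printed 5′ to 3′ from the mm10 reference transcripts because these ends differ between the genes and, for Tbx2, within the gene. Capitals mark AATAAA or ATTAAA, the hexamers that direct cleavage and polyadenylation, searched on the transcript strand in the 50 bases before the end. AATAAA stood in the last 50 bases of 42.1% of 56230 protein-coding transcripts and in 2.01% of windows of that length placed 300 nt further upstream, and ATTAAA in 12.3% and 1.48%.
Tbx2 first end, chr11:85841104-85841133, plus strand: tatttatttaAATAAAgaagcaaaagcagg
Tbx2 second end, chr11:85841591-85841620, plus strand: tatttatgaAATAAAtggtaatttgtgtaa
Tbx2 last end, chr11:85841919-85841948, plus strand: aaatAATAAAaacgctatcatgcgatttga
Ngfr end, chr11:95568821-95568850, minus strand: atacgtgatgaccATTAAAtagcaaaaaaa
Foxd3 end, chr4:99658593-99658622, plus strand: tatgaatgaatatatatggtattctaaatg

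Tbx2 was annotated with 1 transcript, but its reads ended in 3 groups. The first group held 21 of 42 reads (50%) and ended 119 nt after the stop codon at its most frequent position. The second held 10 reads and ended 606 nt after the stop codon, and the last held 11 reads and ended 934 nt after it, at the annotated end. AATAAA began 20, 21 and 26 nt before these ends. The 20 bases after the first end and after the second each held 6 A and no run of more than 2 A.

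The first end was used by 8 of 12 Tbx2 reads at D4 and by 13 of 30 at D6. In the D4 libraries it took 0 of 1, 3 of 3 and 5 of 8 reads, and in the D6 libraries 5 of 9, 2 of 8 and 6 of 13. The pooled share was 66.7% at D4 (95% exact binomial interval 34.9% to 90.1%) and 43.3% at D6 (25.5% to 62.6%). These intervals overlap, and the libraries of both days overlap. Both short and long forms of the Tbx2 3′ untranslated region were read on the days the gene was read.

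**Figure D3:**
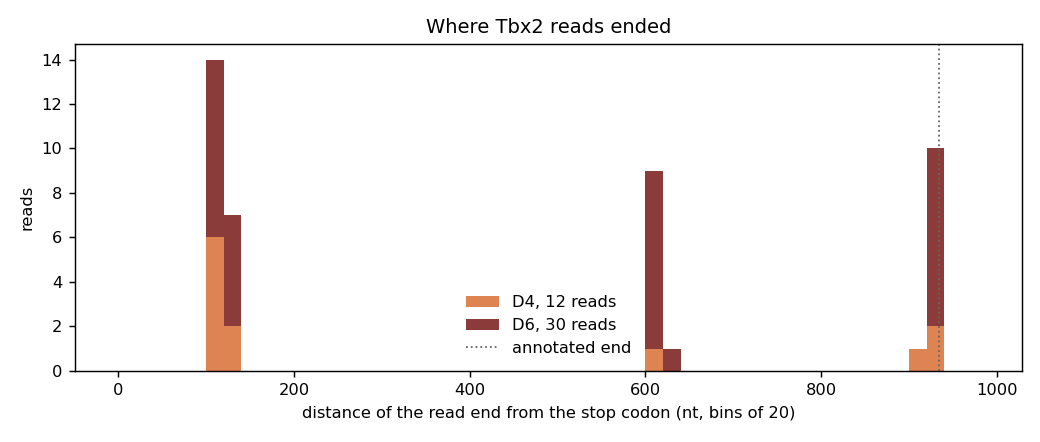
Number of Tbx2 reads (y axis) by the distance of their last aligned base from the stop codon in nt (x axis, bins of 20 nt), stacked by day; the dotted line is the annotated end. Reads of D4 and D6 fall in the same 3 groups, and 21 of 42 lie in the group nearest the stop codon.

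Ngfr ended at 1 place. All 39 reads ended within 20 nt of the annotated end and ATTAAA began 17 nt before the most frequent end. That end lies in a run of A, where the last transcribed base and the first of the tail cannot be told apart. For Foxd3, 71 of 72 reads ended within 50 nt of the annotated end and 62 at its very last base. Neither hexamer was found in the last 50 bases. Reads were aligned to transcripts, so an mRNA that continues past the annotated end would also appear to stop there.

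Tail lengths could be read for each molecule, but none of the 9 genes had at least 10 reads in every library of a pair of days, so tails are described without a test. Foxd3 tails had library medians of 74.9, 95.7 and 80.7 nt at D0 and of 136, 134 and 113 nt at D6. The D6 medians all lay above those of D0, with means of 83.8 ± 10.7 nt and 128 ± 12.8 nt (SD, n = 3 libraries of 7 to 13 reads). Of 4489 genes with at least 7 reads in each of these libraries 12.3% had longer tails at D6 without overlap, so Foxd3 is 1 of 554 such genes. The medians of all mRNA reads lay between 100.2 and 105.5 nt at D0 and between 100.6 and 102.7 nt at D6. At D4 the 8 Foxd3 tails had a median of 124 nt.

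Ngfr tails at D6 had a median of 141 nt over 34 reads, from 32.4 to 326 nt. Replicates 1 and 3 had medians of 149.8 and 145 nt, above all mRNA, and replicate 2 one of 93.3 nt, below it. The 30 Tbx2 tails of D6 had a median of 93.4 nt, with 101, 59.7 and 82.3 nt in the replicates. By end, Tbx2 tails had medians of 92.3, 74.4 and 99.8 nt from the group nearest the stop codon to the farthest, each with a range far wider than the differences between them. The shortest Ngfr tail was above 30 nt, while 2 of the D6 Tbx2 tails and 1 of the D6 Foxd3 tails were under 30 nt.

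**Figure D4:**
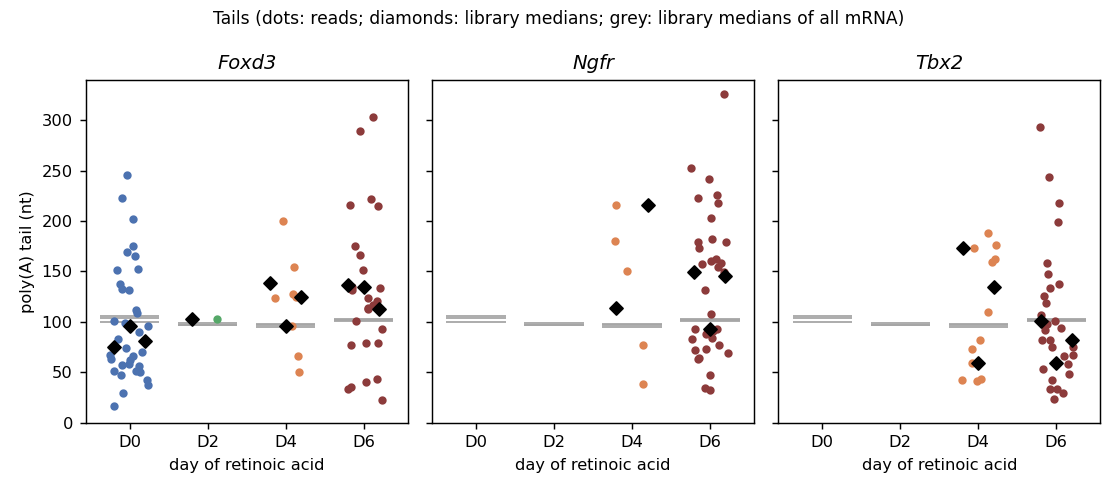
Poly(A) tail length in nt (y axis) of single reads (dots) of Foxd3, Ngfr and Tbx2 by day of retinoic acid (x axis); diamonds are library medians of the gene and grey lines the library medians of all mRNA reads. Foxd3 library medians lie between 74.9 and 95.7 nt at D0 and between 113 and 136 nt at D6.

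Few other genes of the crest programme were deep enough to test. The counts of this and the next lists stand against 19% of all genes higher and 18.8% lower at D6, 12.9% and 12.5% at D4 and 4.69% and 6.11% at D2, and a list near these shares is not set apart by its count. Genes with no read at D0 or at D6 passed the filter through the other days, so that their direction was fixed by it. Of 13 neural plate border specifiers 4 were tested at D6 against D0, with 1 higher and 1 lower. Gbx2, a homeobox gene of the anterior hindbrain and the plate border, went from 1 to 30 reads (ratio 38.2, 95% counting interval 6.35 to 1558, limma-voom adjusted p 5.92e-07). The median log2 change of the 4 was 0.23, beside -4.83e-06 over all genes tested.

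Of 16 other neural crest specifiers 7 were tested, with 4 higher and 1 lower at D6, a median log2 change of 1.17. Sox9, a relative of Sox10 that is also used in neural tube progenitors, went from 5 reads at D0 to 45 at D6 (3.46 ± 0.62 on the log2 scale, limma-voom adjusted p 5.13e-06). The cadherin genes Cdh11 and Cdh6 rose by 1.63 ± 0.57 and 1.40 ± 0.57 (adjusted p 0.0196 and 0.0456 by limma-voom). Mycn fell by 0.71 ± 0.24 (adjusted p 0.0129 by limma-voom). At D4, 2 of these 7 were higher and 0 lower. At D2 0 were called in either direction, which is near the shares of all genes.

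Most relatives of the crest genes had too few reads to test. Of 18 other AP-2, T-box, forkhead D and Snail family genes 6 had no read and 3 were tested. The Snail relatives Scrt2 and Scrt1, which mark newborn neurons, went from 3 to 80 reads (ratio 33.9, counting interval 11.2 to 168) and from 1 to 45 reads (57.3, 9.77 to 2312). Tbx1 fell by 1.57 ± 0.57 (limma-voom adjusted p 0.0245). Among 7 tested genes of AP-2 partners, 1 was higher at D6 and 0 lower, no more than the share of all genes. It was Kctd15, which encodes an inhibitor of AP-2 and rose by 2.00 ± 0.40 (limma-voom adjusted p 4.69e-05). The median of the 7 was 0.13.

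Around Ngfr, 10 of 19 genes of neurotrophins, their receptors and p75 partners were tested and 2 were higher and 2 lower at D6, near the shares of all genes, with a median of 0.00 (0.00265). Maged1, which encodes a protein that binds p75, rose by 1.68 ± 0.15 (limma-voom adjusted p 1.57e-14), and Ndfip1, which encodes an adaptor of ubiquitin ligases, by 1.38 ± 0.20 (5.39e-08 by the same fit). Bex1 and Bex3, small adaptors of which Bex3 binds the death domain of p75, fell by 1.06 ± 0.16 and 0.43 ± 0.12 (1.09e-07 and 0.00263 by the same fit). The neurotrophin gene Ntf3 had 0 reads.

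Markers of crest derivatives and of other cell types are given beside these levels, and their part in the changes was not tested. Of 14 genes of autonomic and sensory neurons 7 were tested and 6 were higher and 0 lower at D6 (median 2.59, or 2.57 with genes at 0 reads set at their bound), but 3 of them, Neurog1 and Ret among them, had no D0 read and could not be lower. Their summed level was 18.2 to 33.7 CPM in the D0 libraries and 266 to 292 CPM at D6. Neurog1, which specifies sensory neurons but also spinal interneurons, went from 0 to 131 reads (at least 55.6-fold higher). Ret was at least 5.94-fold higher and Gfra1, which encodes its co-receptor, rose by 3.10 ± 0.52 (limma-voom adjusted p 1.72e-06). Dbh, which defines noradrenergic neurons, had 0 reads.

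Of 10 Schwann cell and glial markers 5 were tested, with 1 higher, 1 lower and a median of 0.42. The rise was Fabp7, which radial glia also use and the list of neural tube progenitors also holds, from 5 to 619 reads (6.94 ± 0.51, limma-voom adjusted p 3.84e-18), and it supplied most of the list's 726 reads at D6. Pmp22 fell by 2.25 ± 0.31 (1.63e-08 by the same fit). The markers S100b and Egr2 had 0 reads. Of 8 melanocyte markers 1 was tested, the endothelin receptor gene Ednrb (at least 11.9-fold higher), and Tyr, Dct, Tyrp1 and Mlana had 0 reads.

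Central neural markers were also higher at D6, and progenitor markers already at D2 with 7 of 10 tested genes higher and 1 lower, against 4.69% and 6.11% of all genes. The summed level of 12 neural tube progenitor genes was 483 to 551 CPM at D0 and 1640 to 1844 CPM at D6, with 8 of 10 tested genes higher and 2 lower (median 1.49). That of 10 neuronal genes was 541 to 571 CPM at D0 and 2615 to 2699 CPM at D6, with 9 of 9 higher (median 4.03), of which Dcx and Snap25 had no D0 read and could not be lower. Hes5, Dbx1 and Nkx6-1 of the first list and Dcx, Snap25 and Map2 of the second went from 2 to 311, 7 to 308, 20 to 5, 0 to 132, 0 to 44 and 12 to 282 reads.

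Markers of other tissues that use AP-2 factors were also counted. Of 14 surface ectoderm genes 6 had no read, and their summed level was 23.1 to 62.5 CPM at D0 and 4.15 to 10.8 CPM at D6. Epcam, which pluripotent cells also express, was the 1 gene tested, supplied 38 of the list's 58 D0 reads and went from 38 to 3 reads (ratio 0.1005, counting interval 0.0198 to 0.317). Of 8 trophoblast genes 7 had no read, Cdx2 and Elf5 among them, and Ascl2 gave 10 reads at D0 and none later. Of 8 germ cell genes 4 had no read, and none of the 8 had enough reads to test. This list shares a gene with the melanocyte list. Its summed level was 5.47 to 14.7 CPM at D0 and 17.8 to 21.7 CPM at D6, from 15 and 22 reads. These libraries did not overlap, but the share of all genes without overlap was not counted, and no rise is read from it. The summed level of 16 mesoderm and endoderm genes was 12.6 to 28.8 CPM at D0 and 20.7 to 35.6 CPM at D6. All 5 tested embryonal carcinoma genes were lower at D6 (median -5.09, or -4.46 with genes at 0 reads set at their bound), and Utf1 and Tdgf1 were at least 22.0-fold and 17.3-fold lower. These last had no read after D0 and could not be higher.

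**Figure D5:**
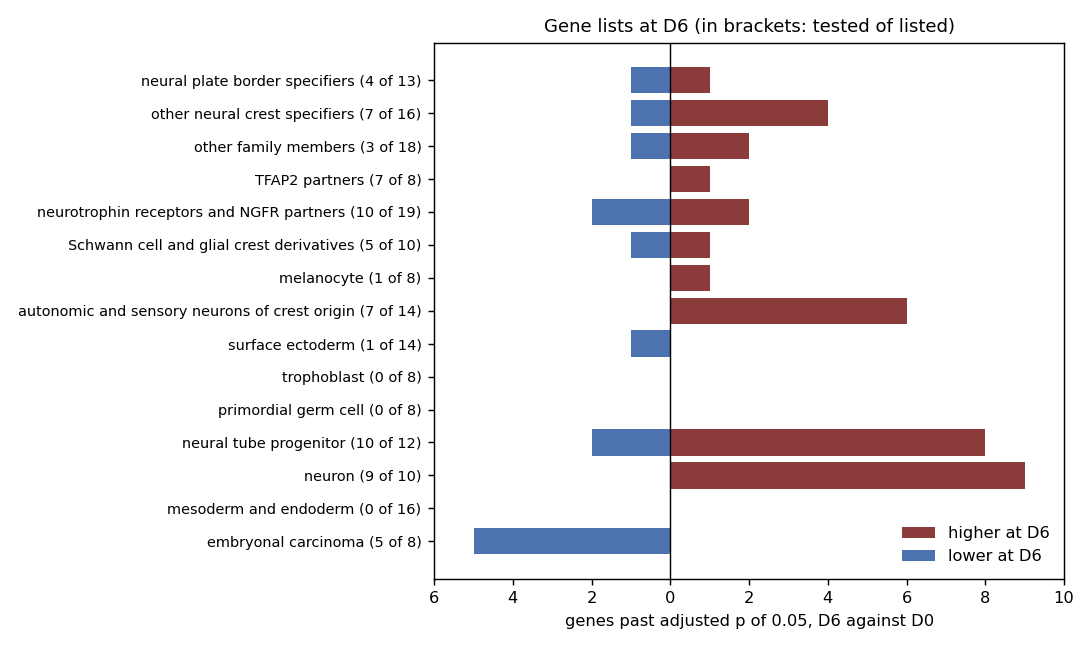
Number of genes of each list that were higher (right) or lower (left) at D6 than at D0 at a limma-voom adjusted p of at most 0.05 (x axis); the brackets give tested of listed genes. Neuronal lists lie to the right, the embryonal carcinoma list to the left, and 3 lists have no tested gene.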

How the data were processed

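Per-read nanopore alignments of the 12 libraries were used as deposited. Guppy (base calls), Minimap2 2.20 (alignment to mm10 GENCODE transcripts), Nanopolish (tail length in nt) and Deeplexicon (barcodes) were the authors' tools. In the deposited table mapping quality is a score of the aligner and barcode confidence is a fraction per read. A second deposited table holds the authors' own fold changes and p-values and was not used. Of 6306434 lines, 69 malformed and 289260 without barcode were left out, and 77.7% of the others were PASS. Mitochondrial transcripts and pseudogenes were set aside. Repeated reads (0.0558% of those kept, none of the 9 genes) stayed in.

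Reads were tallied per gene and library and scaled by the trimmed mean of M-values (30% and 5% trimmed). Limma-voom (limma 3.58.1, R 4.3.3; 0.5 reads added) was fitted to all libraries on 9309 genes with at least 30 reads, adjusted by Benjamini-Hochberg. P-values measure the spread between these libraries. The fit was tested on simulated data. Bounds use 3 reads over a day's libraries and 95% intervals (exact) cover counting error only. Read ends more than 100 nt apart formed separate groups. Annotation and sequence were GENCODE vM21, and the named transcripts on reference chromosomes had the same coordinates there. Python 3.11.15, pandas 2.3.3, numpy 2.4.6, scipy 1.17.1 and matplotlib 3.10.9 were used.

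The genes and lists were chosen with earlier results of these data known. The naming rule took all 9 genes and, in each list, up to 3 genes called higher and 3 called lower at D6 with the largest change, with Pou5f1 and Tubb3. A few genes of these lists are not reported here by name. The 3 most alike genes were to be named for genes with at least 120 reads, which none reached. Alternatives covered scaling, filters, tags, mapping quality, barcode confidence, repeats, transcript class, fit, depth, replicate block and left-out libraries.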

Additional observations from a re-analysis of the deposited data

Results flagged for a closer look

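Reads with quality tags other than PASS were outside the main comparisons and entered the fit only in the alternative with every tag. Ngfr had 6 of them at D6 and 0 at D0, and Tbx2 had 4 at D6 and 0 at D0. These reads outside the main fit lie above the level of the undifferentiated cells. Single outlying libraries were not tested for, with 3 libraries per day.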

How the results depend on the processing

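The calls of Ngfr and Tbx2 at D6 against D0 held under every alternative that tested them, with log2 changes from 2.79 to 5.21 and from 2.76 to 5.11. Neither gene had a D0 read with any tag, so no alternative could turn the direction of these changes. Requiring 120 reads left no crest gene to test (0 calls in each comparison, by construction), and a mapping quality of 10 removed Foxd3 (0 lower at D2 and D4). Without patch contigs, an alternative chosen after seeing the data, 0 were lower at D2 and 2 higher at D6 than at D4. The most read transcript alone gave 0 lower at D4. With library totals, or reads of every tag, 2 were higher at D4 and 2 at D6 than at D4, and without a filter 2 were higher at D4. Thinning every library to the smallest gave 0 higher and 0 lower at D4, and 0 higher at D6 than at D4. Limma-trend called 2 higher at D4 and also 2 (Ngfr and Tbx2) at D2, where both days hold 0 reads, so that the call comes from the added pseudocount and unequal depth, as does the uncalled change of 1.41 in limma-voom. Leaving out 1 library moved the count lower at D2 between 0 and 1, higher at D4 between 1 and 2, lower at D4 between 0 and 1 and higher at D6 than at D4 between 1 and 3.

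Replicate numbers did not pair the samples (correlations of same-numbered libraries -0.11 to 0.109 over 18 pairs, of others -0.13 to 0.127), and with the replicate block 2 genes (Ngfr and Tbx2) were higher at D4 in place of 1. The planned permutation test of the AP-2 share was not possible because later days held 1 read.

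Changes that were not called turned sign in some settings. Foxd3 at D6 against D0 had a log2 change of 0.086 with library totals, 0.057 with every tag, and -0.38 to 0.26 with 1 library left out (0.26 without D6 replicate 2). Foxd3 at D4 against D2 was -1.02 without patch contigs, where 1 read is left on each of these days. Ngfr at D4 against D2 was -0.25 with limma-trend and -0.10 to 1.08 with 1 library left out (-0.10 without D4 replicate 2). The Tfap2c share at D0 was 0% (0 of 2 reads) at a mapping quality of 10, and 16.7% to 71.4% with 1 library left out. The Foxd3 tail difference between D6 and D0 of 44.1 nt was 31.9 nt with means, and 39.7 to 51.5 nt with 1 library left out. Except where the construction is named, the cause was not tested.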

Other observations

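Of the annotated genes within 10 kb of the 9 crest genes, Polr2f and Bcas3 had reads. Polr2f, which lies 3134 bp from Sox10, had 367, 169, 269 and 211 reads on the 4 days in order. Bcas3, 6493 bp from Tbx2 on the same strand, had 22, 7, 28 and 19 reads.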
